A study of Sus scrofa with 15 samples.

Results

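This comparison set 2 mutant forms of human PKD2 against each other, the Tg1 plasmid (c.A1532T/p.D511V) and the Tg2 plasmid (c.T1967G/p.L656W). Its members were the 3 Tg1 and 3 Tg2 libraries, chosen by their sample labels, which made 6 of the 15 libraries of the series. All 15 came from LLC-PK1, a renal proximal tubule line established from a pig, so the cells were of 1 line and 1 animal. The remaining 9 libraries were 3 of the PKD2-free plasmid (NC), 3 of wild-type human PKD2 (WT) and 3 of the Tg3 truncation (c.C2224T/p.R742X). Every plasmid carried the same floxP-neo-pH11 backbone with a CAG promoter, a strong promoter active in most cell types, and the PKD2 inserts were built with a FLAG tag at their end, which the Tg3 protein lacks because its stop codon comes before it. Transfection was transient, with 3 µg of plasmid, and RNA was taken from 3 wells per plasmid after 48 h. Nothing in the labels says that the wells were separate cultures, so the p-values measure the spread between these wells, which may be technical.

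PKD2 encodes polycystin-2, a cation channel of the endoplasmic reticulum and of the primary cilium that passes calcium and partners with polycystin-1. Loss or alteration of either protein causes autosomal dominant polycystic kidney disease, in which tubule epithelium proliferates and forms fluid-filled cysts, and altered calcium, cAMP, Wnt and growth factor signalling have been described in cystic epithelium. The Tg1 change lies in the transmembrane part of the channel and is regarded as dominant negative for calcium release, whereas the Tg2 change lies near the pore. Both were placed over the pig's own polycystins, which the cells kept. Cells of a bulk library are averaged, so fewer transfected cells and less RNA per transfected cell cannot be told apart. The transgene and pig PKD1 and PKD2 were not analysed here, so the dose of each mutant in each library was not compared.

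The 6 libraries held 22184915 to 25736040 counts, and 11553 genes with a mean of at least 2 CPM over the 15 libraries were tested, CPM being counts scaled to a fixed library total. All 10 proximal tubule markers and all 5 epithelial markers found in the table were expressed in both groups, among them the endocytic receptor LRP2 at a mean of 244 CPM in Tg1 and 235.5 CPM in Tg2. Of the 7 markers of fibroblasts, endothelium and leukocytes in the table, 5 were too low to be tested, PTPRC and KDR having at most 1 count in any library, while the collagen gene COL1A2 had means of 928 CPM and 864 CPM and the macrophage marker CD68 means of 2.34 CPM and 3.02 CPM. Libraries of a group were not interchangeable. On the first principal component over all 15 libraries, which held 51% of the variance, Tg1 replicate 1 scored -7.26 against 4.86 and 5.83 for the other Tg1 wells, and Tg2 replicate 3 scored 2.83 against 22.2 and 17.4 for the other Tg2 wells. NC libraries scored from -17.5 to -1.04, so these 2 wells lay nearer to NC than the other wells of their groups.

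Between the 2 mutants, 16 of 11553 genes (0.138%) were differentially expressed genes (DEGs), of which 14 were lower (0.121%) and 2 higher (0.0173%) in Tg1 than in Tg2. The lower genes included DMXL1, NUP205, ADGRG6, GNAQ, SLC7A1, PHIP and PTCH1, and the higher genes were RNF5 and TMEM42. Changes were small, with absolute log2 fold changes from 0.26 to 0.51. The test was edgeR's quasi-likelihood test on the raw counts with all 15 libraries in 1 model, and DEGs were held to a Benjamini-Hochberg adjusted p-value no higher than 0.05 and a log2 fold change of at least 0.26 in either direction. In all 16 DEGs the 3 Tg1 libraries lay wholly on one side of the 3 Tg2 libraries, as they did in 23.2% of all genes tested, and the two-sided exact permutation test gave 0.1 for each, the smallest p-value that 3 against 3 allows. The list depended on single libraries: 0 DEGs were found without Tg1 replicate 1, Tg1 replicate 2 or Tg2 replicate 1 and 3 without Tg2 replicate 2, against 80 without Tg1 replicate 3 and 117 without Tg2 replicate 3. DESeq2 on the same counts gave 156 DEGs, 43 higher and 113 lower in Tg1, which included 15 of the 16.

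**Figure D1:**
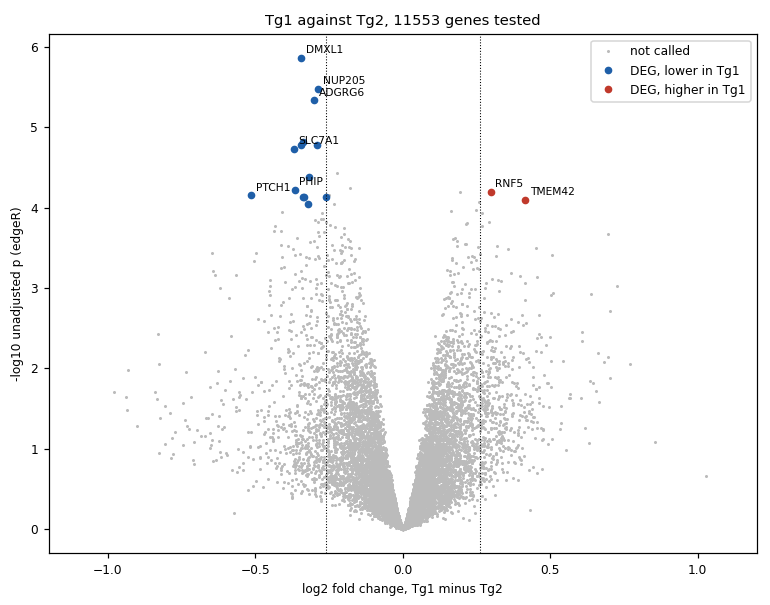
Each point is a gene, with the log2 fold change of Tg1 minus Tg2 on the x axis and -log10 of the unadjusted edgeR p-value on the y axis; genes beyond 1.2 on the x axis are not drawn and dotted lines mark the fold-change limit of 0.26. The 14 genes lower in Tg1 and the 2 higher in Tg1 that were called are coloured, and they sit at modest fold changes while genes of larger fold change have larger p-values.

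**Figure D2:**
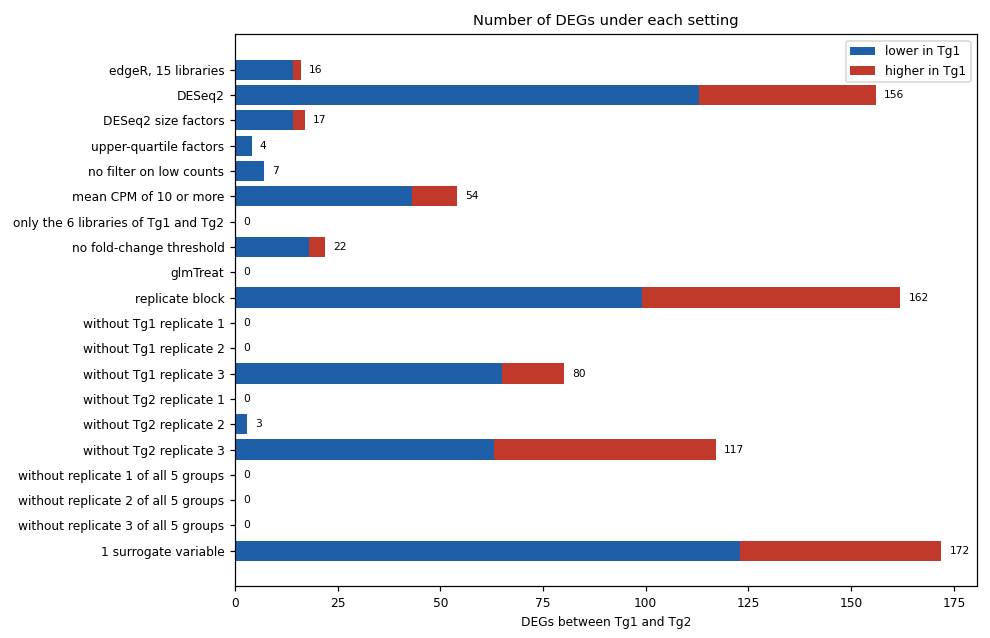
Number of DEGs between Tg1 and Tg2 (x axis) under the edgeR fit of 15 libraries and under each of 19 other settings (y axis), with the part lower in Tg1 in blue and the part higher in red. The count runs from 0 to 172, and in every setting with DEGs more were lower than higher in Tg1.

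Many more genes lay just beyond the limit. At an unadjusted p-value under 0.05 there were 2284 genes (19.8%), 1073 higher (9.29%) and 1211 lower (10.5%) in Tg1, where 578 would be found if no gene differed. This excess depended on the wells. With fewer wells per group, there were 571 such genes without replicate 1 of all 5 groups, close to 578. Without replicate 2 there were 1715 and without replicate 3 there were 3140. At adjusted p-values of 0.055 or less there were 112 genes (33 higher and 79 lower) and at 0.1 or less 326 (110 higher and 216 lower). The last gene inside the limit was ENSSSCG00000038783 at an adjusted p-value of 0.048, and the first outside it was SQSTM1, the autophagy receptor p62, at 0.0503.

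Among the 14 lower DEGs, 4 encode signalling proteins of the cell surface and its immediate relays. ADGRG6 encodes an adhesion G protein-coupled receptor that raises cAMP. Its level was 80.5, 80.5 and 84.4 CPM in the Tg1 libraries and 102, 102 and 97.7 CPM in the Tg2 libraries, a log2 fold change of -0.30 ± 0.0418 (SE, edgeR adjusted p = 0.0179). The groups did not overlap, and the NC mean of 90.9 ± 4.67 CPM (SD, n = 3) lay between them. GNAQ encodes the alpha subunit of Gq, which activates phospholipase C and through it the calcium release of IP3 receptors. Tg1 libraries had 49.6, 51.7 and 52.2 CPM and Tg2 libraries 63.4, 63.3 and 61.3 CPM, a log2 fold change of -0.29 ± 0.0458 (edgeR adjusted p = 0.0307). Every Tg1 library was below every NC library as well, NC being at 59.5 ± 1.99 CPM. PTCH1, the Hedgehog receptor that acts at the primary cilium, had the largest fold change of the 16 and also the fewest counts. It measured 7.22, 6.86 and 7.03 CPM in Tg1 and 9.46, 11.04 and 9.68 CPM in Tg2, a log2 fold change of -0.51 ± 0.0928 (edgeR adjusted p = 0.0476). The 3 Tg1 wells were close together and the spread came from Tg2 replicate 2, the highest well. MAP3K9, a mixed-lineage kinase upstream of JNK, was at 17.7, 20.2 and 19.2 CPM in Tg1 and 23.7, 23.5 and 23.99 CPM in Tg2, a log2 fold change of -0.32 ± 0.0546 (edgeR adjusted p = 0.0476). Here Tg1 replicate 2 lay within the NC libraries, which measured 20.5, 19.99 and 19.9 CPM.

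A second set of 4 lower DEGs act in membrane traffic, transport and nuclear exchange. DMXL1, a large partner of the proton-pumping V-ATPase, had the smallest p-value of all genes tested. Its level was 85.5, 92.1 and 95.3 CPM in the Tg1 wells and 114, 115 and 117 CPM in the Tg2 wells, a log2 fold change of -0.34 ± 0.0432 (edgeR adjusted p = 0.016). All 12 other libraries of the series lay above the highest Tg1 well. NUP205, a scaffold protein of the nuclear pore, measured 60.1, 63.3 and 63.1 CPM and 76.2, 72.9 and 78.4 CPM, a log2 fold change of -0.29 ± 0.0389 (edgeR adjusted p = 0.0179). NC at 64.8 ± 2.004 CPM was near Tg1, while the Tg3 wells, at 71.4, 72.6 and 73.1 CPM, overlapped those of Tg2. KIAA1109 encodes a very large bridge-like lipid transfer protein. It was at 43.03, 49.05 and 47.7 CPM in Tg1 and 60.96, 55.2 and 61.4 CPM in Tg2, a log2 fold change of -0.35 ± 0.0541 (edgeR adjusted p = 0.0307), with Tg1 replicate 1 the lowest well. SLC7A1 encodes the main transporter of arginine and lysine into many cells. Tg1 wells had 68.8, 72.5 and 79.3 CPM against NC at 70.5 ± 1.69 CPM, with Tg1 replicate 3 well above every NC well. Tg2 wells had 96.2, 99.2 and 89.8 CPM, a log2 fold change between the mutants of -0.37 ± 0.0587 (edgeR adjusted p = 0.0307). The Tg3 wells, at 86.5, 89.3 and 82.995 CPM, were just below the Tg2 wells and above every NC and WT well.

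The remaining 6 lower DEGs have nuclear, cytoskeletal and other roles. PHIP, a bromodomain protein of chromatin, was at 27.8, 30.2 and 30.9 CPM in Tg1 and 39.9, 37.003 and 37.8 CPM in Tg2, a log2 fold change of -0.37 ± 0.065 (edgeR adjusted p = 0.0476). RIF1, which guards telomeres and broken DNA ends, had 45.2, 49.3 and 52.5 CPM and 62.2, 63.3 and 60.5 CPM, a log2 fold change of -0.34 ± 0.0614 (edgeR adjusted p = 0.0476). In both genes Tg1 replicate 1 was the lowest well and no Tg1 well reached a Tg2 well. MICAL2, an oxidase that takes actin filaments apart, measured 24.9, 26.2 and 28.7 CPM and 33.1, 32.2 and 35.3 CPM, a log2 fold change of -0.34 ± 0.0608 (edgeR adjusted p = 0.0476). MCC, a gene first named for its mutation in colorectal cancer, measured 21.1, 20.999 and 19.8 CPM and 25.7, 26.3 and 26.2 CPM, a log2 fold change of -0.34 ± 0.0529 (edgeR adjusted p = 0.0307). Both were below NC in Tg1, where NC was at 36.3 ± 0.453 CPM for MICAL2 and 24.95 ± 0.704 CPM for MCC, and the Tg2 wells of MICAL2 were below the NC wells too. PPTC7, a phosphatase of mitochondria, was at 33.2, 34.6 and 35.2 CPM and 42.9, 40.9 and 39.7 CPM, a log2 fold change of -0.26 ± 0.0475 (edgeR adjusted p = 0.0476), just past the fold-change limit. ENSSSCG00000038783, which has no symbol in the sources used here, was at 46.3, 44.5 and 48.3 CPM and 60.1, 59.3 and 54.5 CPM, a log2 fold change of -0.32 ± 0.0595 (edgeR adjusted p = 0.048). Its Tg1 wells were near NC at 43.3 ± 1.62 CPM, and its Tg3 wells, at 50.6, 54.7 and 52.4 CPM, reached the lowest Tg2 well. PPTC7, RIF1 and ENSSSCG00000038783 lie outside the rule for named genes and were named after their values were seen.

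Only 2 genes were higher in Tg1. RNF5, a ubiquitin ligase anchored in the endoplasmic reticulum that takes part in the removal of misfolded proteins, was at 54.9, 48.7 and 50.98 CPM in Tg1 and 42.3, 39.9 and 43.4 CPM in Tg2, a log2 fold change of 0.30 ± 0.0533 (edgeR adjusted p = 0.0476). NC lay between the mutants at 47.4 ± 0.675 CPM. TMEM42, a membrane protein of little-known function, was at 18.97, 17.8 and 19.98 CPM in Tg1 and 14.6, 13.01 and 14.9 CPM in Tg2, a log2 fold change of 0.41 ± 0.0757 (edgeR adjusted p = 0.048). WT libraries of TMEM42 were also high, with a mean of 17.8 ± 1.002 CPM (SD, n = 3), whereas NC at 14.8 ± 0.875 CPM was at the level of Tg2.

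**Figure D3:**
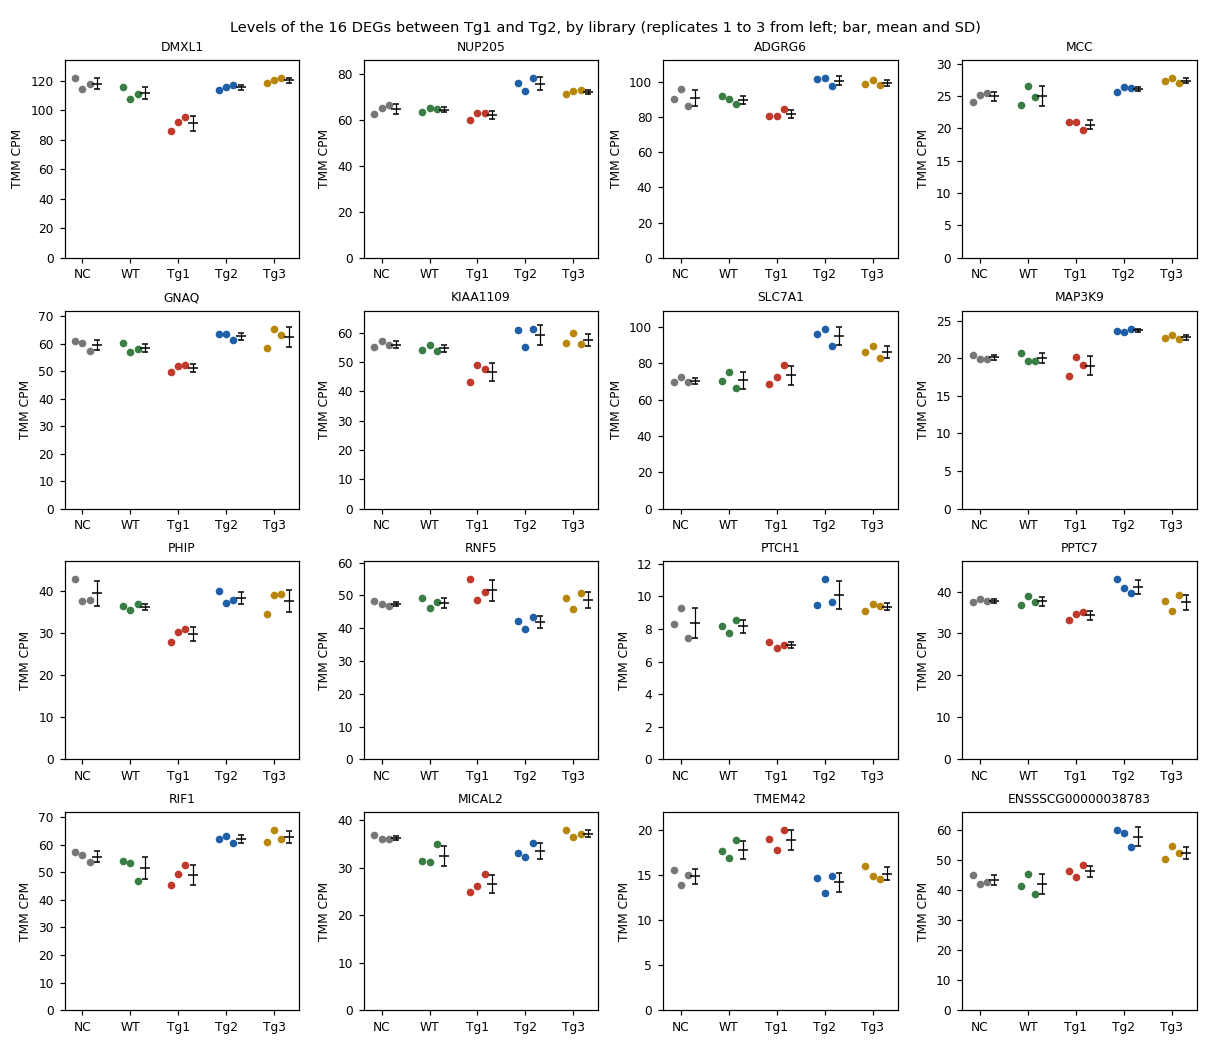
TMM-normalized CPM of the 16 DEGs in each of the 15 libraries, 1 panel per gene with the y axis from 0, points for replicates 1 to 3 from left in each group, and a bar with whiskers for the mean and SD. In every panel the 3 red Tg1 points and the 3 blue Tg2 points do not overlap, and in DMXL1 all Tg1 points are below every other library.

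Set against all 5 groups, the Tg1 mean was the lowest in 12 of the 14 lower DEGs and the Tg2 mean was the highest in 9. The NC mean lay between the mutants in 9 of the 14 and was nearer to Tg2 in 9, and the WT mean lay between them in 12. The Tg3 mean was nearer to Tg2 than to Tg1 in 13 of the 14. Since the genes were chosen for Tg1 lying below Tg2, these placements are a description only. Against NC, the fit gave 138 DEGs for Tg1 (1.19%) and 974 for Tg2 (8.43%), 2 comparisons that share the NC libraries. DMXL1 had log2 fold changes against NC of -0.38 in Tg1 (edgeR adjusted p = 0.00454) and -0.032 in Tg2 (0.625). PHIP had -0.41 (0.00915) and -0.04 (0.675), and MICAL2 -0.45 (0.00559) and -0.11 (0.188), in the same order. For these 3 genes the Tg1 contrast passed the limits and the Tg2 contrast did not. The same held for MCC at -0.28 (0.0222) and 0.064 (0.401) and KIAA1109 at -0.265 (0.0268) and 0.08 (0.299). It held as well for TMEM42, which was higher in Tg1, at 0.35 (0.0319) and -0.065 (0.57). SLC7A1 was the other way round, with 0.06 (0.593) and 0.43 (0.00865), while NUP205 had -0.061 (0.4) and 0.23 (0.0117), past the adjusted p-value but not the fold change in Tg2.

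A further 6 genes passed the adjusted p-value but not the fold change, which made 22 (0.19%). H2AZ2, a variant histone, was higher in Tg1 by a log2 fold change of 0.19 ± 0.0347 and CPB2, a carboxypeptidase that slows clot lysis, by 0.258 ± 0.0473, just under the limit (edgeR adjusted p = 0.0476 and 0.048). ARHGAP5, a GTPase-activating protein, was lower in Tg1 at -0.18 ± 0.0314, and so was DDX21, a nucleolar RNA helicase, at -0.25 ± 0.0452 (both 0.0476). TCF20, a transcriptional coregulator, was at -0.23 ± 0.0433 (0.048) and ENSSSCG00000029683 at -0.22 ± 0.0378 (0.0476), the last 2 being named after their values were seen. In the higher direction the next genes by p-value did not pass. SQSTM1 was at 0.25 ± 0.0463 (0.0503), RPL5 at 0.27 ± 0.0506 (0.0503), HMGN3 at 0.29 ± 0.0569 (0.0509) and IKBKG, the regulatory subunit of the IκB kinase, at 0.27 ± 0.0529 (0.0509). TSPYL2, a nucleosome assembly family member, had the widest of these differences. It measured 11.8, 10.4 and 9.9 CPM in Tg1 and 6.19, 6.55 and 7.11 CPM in Tg2, a log2 fold change of 0.69 ± 0.14 (edgeR adjusted p = 0.0509).

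Gene lists of the pathways tied to polycystic kidney disease and of general cell programmes were read against all genes tested, of which 50.1% were higher and 49.9% lower in Tg1 with a median log2 fold change of 0.0003. A share of 0.121% called lower means that lists of this size would hold few DEGs in any case, so the counts of direction are given as well. Counts at an unadjusted p-value under 0.05 are to be read against 9.29% higher and 10.5% lower over all genes tested. DESeq2 calls are to be read against 43 of 11553 genes higher and 113 lower. The lists were chosen with earlier results of these data known, so their directions are a description and not a test. Calcium handling held no edgeR DEG among 38 genes, with 3 higher and 10 lower at an unadjusted p-value under 0.05, and DESeq2 called 1, lower. In 12 of the 38 all Tg1 wells were below all Tg2 wells, against 12% of all genes, and in 4 they were all above, against 11.2%. The 12 included both IP3 receptors named by the rule, calcium release channels. ITPR1 was at 62.2, 73.8 and 78.99 CPM in Tg1 and 87.1, 85.05 and 82.7 CPM in Tg2, a log2 fold change of -0.24 ± 0.0691 (edgeR adjusted p = 0.106), and ITPR2 had -0.19 ± 0.0497 (0.0794). NFAT5, the transcription factor of the osmotic response, was at 35.4, 40.7 and 37.2 CPM and 49.04, 46.1 and 55.8 CPM, a log2 fold change of -0.41 ± 0.0866 (edgeR adjusted p = 0.0509). MCU, the mitochondrial calcium uniporter, had -0.19 ± 0.0554 (0.111) and ATP2B4, a calcium pump of the plasma membrane, -0.24 ± 0.0714 (0.114). The list as a whole was mixed, with 17 genes higher and 21 lower and a median of -0.031, which was -0.0045 without Tg2 replicate 3 and -0.0067 with upper-quartile factors.

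In the cAMP and protein kinase A list, 9 of 28 genes were higher and 19 lower with a median of -0.066 (-0.042 with upper-quartile factors), and neither edgeR nor DESeq2 called any (2 higher and 9 lower at an unadjusted p-value under 0.05). PPP1R1A, an inhibitor of protein phosphatase 1, was the one nearest the limit and was on the higher side, at 0.23 ± 0.0508 (edgeR adjusted p = 0.0509). PRKAR2A, a regulatory subunit of the kinase, was at -0.17 ± 0.0439 (0.0785) and PDE4D, a cAMP phosphodiesterase, at -0.26 ± 0.0794 (0.127). Wnt and planar cell polarity genes were 10 higher and 20 lower of 30, with no call by edgeR or DESeq2 and 1 higher and 4 lower at an unadjusted p-value under 0.05. Their median was -0.036. It was -0.016 with 14 higher and 16 lower without Tg2 replicate 3, and -0.077 with 8 higher and 22 lower without Tg2 replicate 2. Without replicate 3 of all 5 groups it was -0.0096, with 15 genes on each side. The coreceptor LRP6 measured 32.5, 34.4 and 36.4 CPM in Tg1 and 41.6, 39.7 and 40.6 CPM in Tg2, a log2 fold change of -0.24 ± 0.0523 (edgeR adjusted p = 0.0509). The groups did not overlap and both were below NC at 45.3 ± 2.74 CPM. FZD6, a Wnt receptor, was at -0.18 ± 0.0523 (0.115), while PTK7 was on the higher side at 0.19 ± 0.0705 (0.165). Among 21 ligands and growth factor receptors of the EGF receptor list 10 were higher and 11 lower, with a median of -0.0045 that ranged from -0.052 without Tg1 replicate 3 to 0.032 without Tg2 replicate 3 and moved by over 1.5 times with each of the 6 libraries left out, and was 0.02 with upper-quartile factors. MET, the receptor of hepatocyte growth factor, had the smallest p-value, with 125, 136 and 147 CPM in Tg1 and 188, 175 and 154 CPM in Tg2, a log2 fold change of -0.34 ± 0.0847 (edgeR adjusted p = 0.0718), and EGFR was at -0.16 ± 0.0579 (0.161). On the higher side were TYRO3 at 0.19 ± 0.0799 (edgeR adjusted p = 0.207) and KITLG at 0.31 ± 0.139 (0.243). None of that list was called by edgeR, 2 were higher and 2 lower at an unadjusted p-value under 0.05, and DESeq2 called 1, lower.

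Of the genes of the primary cilium and of cystic disease 42 of 63 were higher in Tg1, with a median of 0.061. In 9 all Tg1 wells were above Tg2, close to the 11.2% of all genes, and in 5 they were all below, against 12%. The median was 0.025 without Tg1 replicate 1, 0.038 without Tg2 replicate 1, 0.026 with 1 surrogate variable (a hidden factor estimated from the whole table), and 0.006 with 33 higher and 30 lower without replicate 1 of all 5 groups. None was a DEG by edgeR, 10 were higher and 2 lower at an unadjusted p-value under 0.05, and DESeq2 called 1, higher. DYNC2LI1, a light intermediate chain of the ciliary dynein, measured 76.3, 70.99 and 65.3 CPM in Tg1 and 47.7, 56.2 and 63.4 CPM in Tg2, a log2 fold change of 0.34 ± 0.0997 (edgeR adjusted p = 0.11). IFT20 was at 0.21 ± 0.0683 (0.134), while IFT172, of the same intraflagellar transport machinery, was at -0.19 ± 0.062 (0.142). PKHD1, the gene of recessive polycystic kidney disease, overlapped between the mutants at 132.4, 134 and 136 CPM and 137, 132.4 and 162 CPM, a log2 fold change of -0.10 ± 0.071 (edgeR adjusted p = 0.435). Transporters and brush border proteins of the proximal tubule were 20 higher and 7 lower of 27, with a median of 0.11. It was 0.048 without Tg2 replicate 1, 0.193 without Tg2 replicate 3, 0.019 without replicate 1 of all 5 groups and 0.021 with the surrogate variable. The urate and phosphate transporter SLC17A3 was at 0.30 ± 0.0796 (0.0881), the scaffold PDZK1 at 0.34 ± 0.11 (0.132) and the sodium-phosphate cotransporter SLC34A1 at 0.30 ± 0.10 (0.155). In all 3 genes Tg2 replicate 3 was the highest Tg2 well. The folate receptor FOLR1, named after its values were seen, was on the lower side at 5.74, 7.41 and 8.86 CPM in Tg1 and 11.6, 11.98 and 9.27 CPM in Tg2, a log2 fold change of -0.58 ± 0.23 (edgeR adjusted p = 0.19). No gene of this list was called by edgeR, 7 were higher and 1 lower at an unadjusted p-value under 0.05, and DESeq2 called 1, higher.

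Lists of growth and structural programmes were mostly on the lower side in Tg1. Neither transcript length nor RNA quality was examined for any list. Of 55 cell cycle and centriole genes 41 were lower, with a median of -0.10 and 19 whose Tg1 wells were all below Tg2, against 12% of all genes. In 2 all Tg1 wells were above Tg2, against 11.2%. edgeR called none, 1 was higher and 21 lower at an unadjusted p-value under 0.05, and DESeq2 called 3, all lower. CDK6, a kinase of G1 entry, was at 30.2, 35.8 and 38.1 CPM in Tg1 and 51.4, 44.02 and 42.8 CPM in Tg2, a log2 fold change of -0.41 ± 0.0892 (edgeR adjusted p = 0.0509). CDK4, its close relative, was on the opposite side at 0.17 ± 0.0413 (0.065). RBL1, a pocket protein that restrains E2F, was at -0.21 ± 0.0443 (0.0509), E2F7 at -0.25 ± 0.0582 (0.0591) and ORC1 of the replication origin complex at -0.34 ± 0.08 (0.0612). p53 target genes were balanced, 12 higher and 10 lower of 22, with the DNA polymerase POLK at -0.21 ± 0.0503 (0.065) and TP53INP1 at 0.21 ± 0.0813 (0.183). The p53 list held no edgeR or DESeq2 call, with 2 genes on each side at an unadjusted p-value under 0.05.

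Of 60 genes of actin, junctions and focal adhesion 42 were lower, with a median of -0.078, 23 genes whose Tg1 wells were all below Tg2 (12% of all genes) and MICAL2 as the single DEG by edgeR. In 4 all Tg1 wells were above Tg2, against 11.2% of all genes. In this list 3 genes were higher and 21 lower at an unadjusted p-value under 0.05, DESeq2 called 3, all lower, and the median was -0.13 without Tg1 replicate 3 and -0.047 without replicate 1 of all 5 groups. LPP, a protein of focal adhesions, had a wide difference between the groups, at 12.6, 18.8 and 19.7 CPM in Tg1 and 28.5, 21.9 and 29.1 CPM in Tg2, a log2 fold change of -0.64 ± 0.15 (edgeR adjusted p = 0.0592). Tg1 replicate 1 was far the lowest of these wells. The collagen-binding integrin ITGA2 was at -0.33 ± 0.0732 (0.0545). Chromatin and other long nuclear regulators leaned further to one side, with 42 of 45 lower and a median of -0.14 (-0.088 without Tg2 replicate 3). In 24 all Tg1 wells were below Tg2, against 12% of all genes. Between the mutants PHIP was the only DEG of this list by edgeR, 22 were lower and 0 higher at an unadjusted p-value under 0.05, and DESeq2 called 5, all lower. Against NC, 13 of the 45 were DEGs lower in Tg1, where 117 of all 11553 genes were. Both comparisons use the same Tg1 libraries and the list was chosen with earlier results known, so its lean is a description only. KMT2A, a histone H3 lysine methyltransferase, measured 34.02, 40.2 and 42.7 CPM in Tg1 and 52.2, 43.7 and 56.7 CPM in Tg2, a log2 fold change of -0.38 ± 0.0964 (edgeR adjusted p = 0.0718). The remodeller SMARCA4 was at -0.20 ± 0.0402 (0.0509), the elongation factor AFF4 at -0.29 ± 0.0627 (0.0509) and PRRC2C at -0.19 ± 0.0515 (0.0877). Summed over the 45 genes, the Tg1 wells reached 3906, 4112 and 4228 CPM, all below the Tg2 wells at 4512, 4381 and 4670.0 CPM and the NC wells at 4561, 4567 and 4658 CPM.

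Hypoxia and glycolysis genes were lower in Tg1 in 32 of 36, with a median of -0.11 and 17 whose Tg1 wells were all below Tg2, against 12% of all genes. In 1 gene all Tg1 wells were above Tg2, against 11.2%. The median was -0.056 both with the surrogate variable and without replicate 1 of all 5 groups. edgeR called none, 14 were lower and 0 higher at an unadjusted p-value under 0.05, and DESeq2 called 4, all lower. HK2, the hexokinase of glycolytic tissues, measured 58.7, 65.6 and 73.6 CPM in Tg1 and 101, 97.3 and 83.1 CPM in Tg2, a log2 fold change of -0.51 ± 0.11 (edgeR adjusted p = 0.0519). The Tg1 mean of HK2, 65.96 CPM, lay between NC at 58.8 ± 6.83 CPM and the Tg2 mean of 93.7 CPM, and every Tg2 well was above every NC well. PDK1, which keeps pyruvate out of mitochondria, was at -0.42 ± 0.11 (0.0904), BNIP3, a mitophagy receptor, at -0.29 ± 0.0818 (0.101) and the collagen lysyl hydroxylase PLOD1 at -0.23 ± 0.0452 (0.0509). Ribosome biogenesis genes were lower in 39 of 43 with a median of -0.098. Of these 43, 16 had all Tg1 wells below Tg2, against 12% of all genes, and 1 had them all above, against 11.2%. The median was -0.062 with the surrogate variable. DDX21 passed the adjusted p-value only and UTP20, a factor of small-subunit processing, was at -0.18 ± 0.0436 (0.0622). With no DEG by edgeR or DESeq2 in that list, 2 genes were higher and 17 lower at an unadjusted p-value under 0.05. The ribosomal proteins themselves lay on the other side, with 41 of the 43 measured higher, a median of 0.066 (0.043 without Tg1 replicate 2, 0.10 with the surrogate variable) and 15 whose Tg1 wells were all above Tg2, against 11.2% of all genes. RPL5 had 953, 933 and 852 CPM in Tg1 and 741, 739.8 and 796 CPM in Tg2, and RPL7 was at 0.14 ± 0.0348 (edgeR adjusted p = 0.073). edgeR called none of them, 10 were higher and 0 lower at an unadjusted p-value under 0.05, and DESeq2 called 1, higher. Ribosomal protein genes have many near-identical copies, so reads can be shared among them in transcript quantification.

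**Figure D4:**
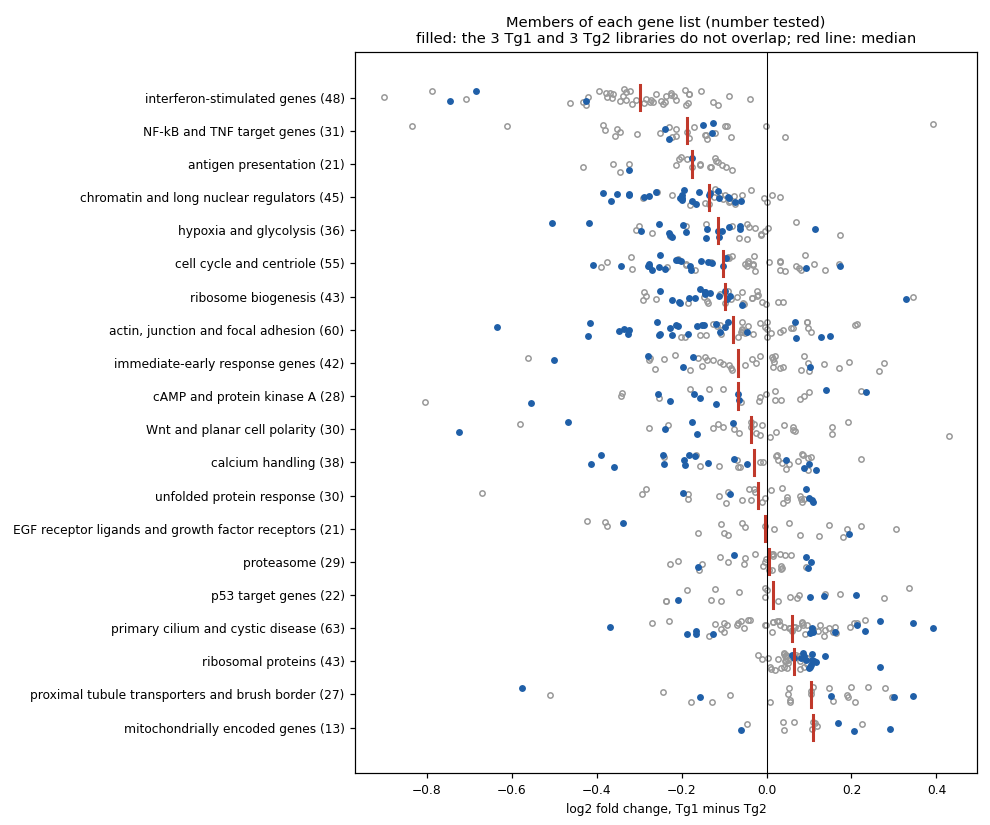
Log2 fold changes of Tg1 minus Tg2 (x axis) for the tested members of each gene list (y axis, number tested in brackets), with the median as a red line. Filled points are genes whose 3 Tg1 and 3 Tg2 libraries do not overlap; all 48 interferon-stimulated genes are below 0 but only 3 are filled, whereas 24 of 45 chromatin genes and 17 of 36 hypoxia and glycolysis genes are filled below 0.

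Mitochondrially encoded genes were higher in 11 of 13 with a median of 0.11. The median was 0.062 without Tg1 replicate 1 and 0.057 without Tg2 replicate 1, and 7 were higher and 6 lower both with the surrogate variable and without replicate 1 of all 5 groups. Of the 13 none was called by edgeR or DESeq2 (3 higher and 0 lower at an unadjusted p-value under 0.05). ATP6 was at 0.17 ± 0.0551 (edgeR adjusted p = 0.138) and ND6, the one such protein gene of the light strand, at 0.29 ± 0.0996 (0.147). COX1, a subunit of cytochrome oxidase, was on the lower side with all Tg1 wells below Tg2, at -0.061 ± 0.0301 (0.276). The summed level of the 13 genes overlapped between the groups, from 28948 to 31151 CPM in Tg1 and from 28306 to 30665 CPM in Tg2. The unfolded protein response held 13 genes higher and 17 lower of 30, and the proteasome 15 higher and 14 lower of 29. Their medians were -0.019 and 0.0069, and leaving out 1 library gave -0.054 (Tg2 replicate 3) to 0.007 (Tg2 replicate 1) for the first, which was 0.0051 with upper-quartile factors, and -0.0069 (Tg2 replicate 3) to 0.018 (Tg2 replicate 2) for the second. Neither list thus held one direction. Of these 2 lists edgeR and DESeq2 called none, with 2 genes on each side at an unadjusted p-value under 0.05 in the first and 3 higher and 1 lower in the second. DNAJC3, a cochaperone of the endoplasmic reticulum, was at -0.20 ± 0.0641 (0.136) and PSMC3, an ATPase of the proteasome, at 0.11 ± 0.0365 (0.151). In the first list SEC24D was also lower, at -0.29 ± 0.0988 (edgeR adjusted p = 0.145). On its higher side were PDIA6 at 0.11 ± 0.0487 (0.239) and HSP90B1 at 0.094 ± 0.0424 (0.239).

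The interferon-stimulated genes showed a direction without separation. All 48 tested were lower in Tg1, with a median log2 fold change of -0.30, but 3 had all Tg1 wells below all Tg2 wells, against 12% of all genes. Not one was called by edgeR or DESeq2, and 1 was lower at an unadjusted p-value under 0.05. Their median SE was 0.22 on the log2 scale, against 0.075 over all genes. Summed over the 48 genes, the Tg1 wells were at 27482, 36738 and 38012 CPM and the Tg2 wells at 49583, 44971 and 34524 CPM. Tg1 replicate 1 was the lowest and Tg2 replicates 1 and 2 the highest, while Tg2 replicate 3 lay below the other 2 Tg1 wells. TRIM25, a ubiquitin ligase of the RIG-I pathway, was at 5.87, 10.05 and 11.4 CPM in Tg1 and 16.2, 16.8 and 12.9 CPM in Tg2, a log2 fold change of -0.74 ± 0.30 (edgeR adjusted p = 0.199). OASL, an interferon-induced relative of the oligoadenylate synthetases, had 188, 285 and 309 CPM and 489.9, 455 and 311 CPM, a log2 fold change of -0.68 ± 0.35 (0.289). IFI6 and TRIM25 were, with OASL, the 3 genes without overlap, and IFI6 was at -0.42 ± 0.21 (0.267). CXCL9, a chemokine, had 3.65, 8.55 and 8.2 CPM and 15.7, 14.9 and 7.7 CPM, a log2 fold change of -0.90 ± 0.42 (0.257), where Tg2 replicate 3 lay inside the range of Tg1. The median was -0.18 without Tg1 replicate 1, and without replicate 1 of all 5 groups it was -0.065 with 41 lower and 7 higher. The direction of the list turned with the surrogate variable in the model, where 13 of 48 were lower and the median was 0.037.

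Antigen presentation and NF-κB target genes were laid out like the interferon-stimulated genes across the wells. Summed antigen presentation genes were at 7525, 8599 and 8578 CPM in Tg1 and 9922, 9386 and 7966 CPM in Tg2, and summed NF-κB and TNF target genes at 3803, 4328 and 4417 CPM and 5004, 4698 and 4091 CPM. In both lists Tg1 replicate 1 was the lowest well and Tg2 replicate 3 lay below the other 2 Tg1 wells. All 21 antigen presentation genes were lower, with a median of -0.17, and 29 of 31 NF-κB and TNF target genes, with a median of -0.19. Neither list held a call by edgeR or DESeq2, and 2 and 7 genes in turn were lower at an unadjusted p-value under 0.05. ERAP1, an aminopeptidase that trims peptides for class I molecules, was at 119, 138 and 144 CPM in Tg1 and 188, 166 and 147 CPM in Tg2, a log2 fold change of -0.32 ± 0.13 (edgeR adjusted p = 0.199). The class II chain HLA-DRA was at -0.43 ± 0.19 (0.226), under the symbol of its human counterpart. TNFAIP3, the brake on NF-κB known as A20, had 59.7, 71.4 and 77.4 CPM and 82.3, 81.8 and 82.2 CPM, a log2 fold change of -0.24 ± 0.0803 (0.142). The chemokine CXCL8 was at -0.34 ± 0.12 (0.146), NFKBIE at -0.23 ± 0.0921 (0.199) and IRAK2, a kinase adaptor of Toll-like and interleukin-1 receptors, at -0.61 ± 0.25 (0.204). VCAM1, an adhesion molecule for leukocytes, was at 6.27, 9.38 and 8.74 CPM and 17.3, 16.98 and 9.27 CPM, so that Tg2 replicate 3 again lay among the Tg1 wells. Without Tg1 replicate 1 and without Tg2 replicate 1 the medians were -0.10 and -0.11 for antigen presentation and -0.11 and -0.12 for the NF-κB list, and without replicate 1 of all 5 groups they were -0.031 and -0.055. With the surrogate variable the median of antigen presentation became 0.031, with 9 of 21 lower, and that of the NF-κB list -0.034, with 18 of 31 lower.

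**Figure D5:**
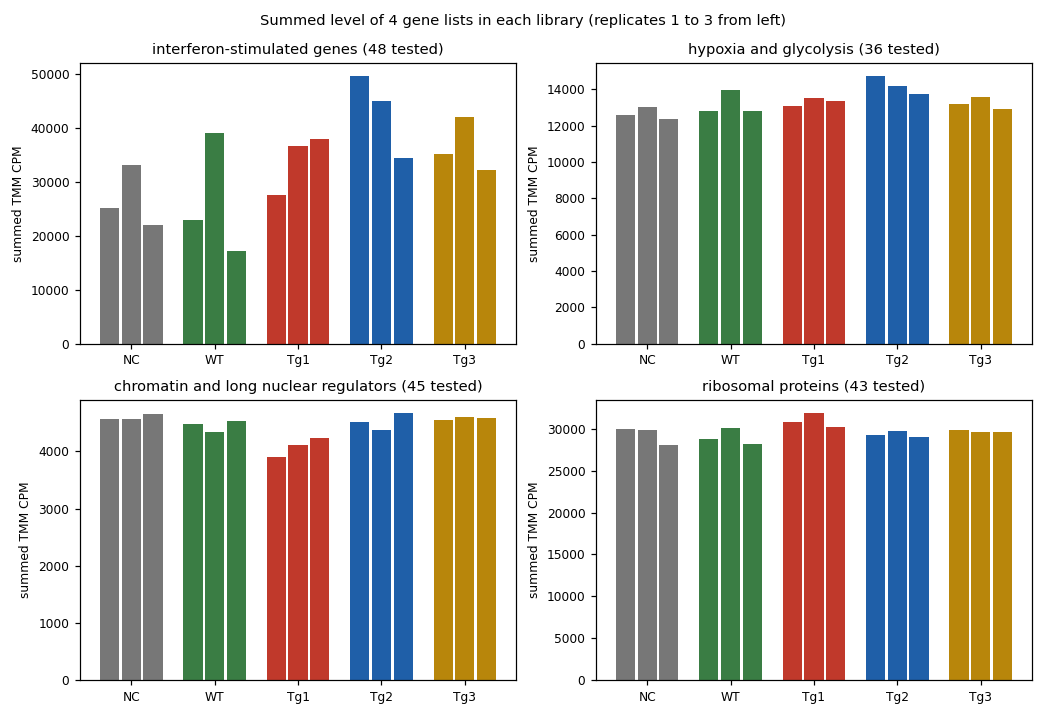
Summed TMM-normalized CPM (y axis from 0) of 4 gene lists in each of the 15 libraries, bars for replicates 1 to 3 from left in each group. Interferon-stimulated genes vary within every group and overlap between Tg1 and Tg2, whereas the 3 Tg1 bars of the chromatin list, 3906 to 4228 CPM, lie below the 3 Tg2 bars, 4381 to 4670.0 CPM.

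MYC, ADM, IER3 and EDN1, genes of growth and stress responses that were known from the comparisons with NC, were not DEGs between the mutants. MYC was at 258, 286 and 313 CPM in Tg1 and 318, 341 and 311 CPM in Tg2, a log2 fold change of -0.18 ± 0.0671 (edgeR adjusted p = 0.173). ADM, the vasodilator adrenomedullin, was at -0.19 ± 0.0923 (0.268) and IER3, an early response gene of cell survival, at -0.20 ± 0.0909 (0.251). EDN1, the vasoconstrictor endothelin-1, measured 33.5, 47.2 and 53.4 CPM and 64.9, 66.4 and 49.7 CPM, a log2 fold change of -0.43 ± 0.15 (0.161), with Tg1 replicate 3 above Tg2 replicate 3. In each of the 4 genes Tg1 replicate 1 was the lowest of the 6 wells. Their log2 fold changes against the shared NC libraries were 0.34 in Tg1 and 0.52 in Tg2 for MYC, 0.53 and 0.72 for ADM, 0.44 and 0.64 for IER3 and 0.60 and 1.03 for EDN1. WFDC2, a secreted protease inhibitor of epithelia, was at 0.12 ± 0.0391 (0.141) with no overlap, its Tg1 and Tg2 wells all being above the NC wells at 858 ± 12.4 CPM. The whole immediate-early list was split, 17 higher and 25 lower of 42 with a median of -0.067 (0.034 without Tg1 replicate 1, -0.13 without Tg1 replicate 3 and -0.013 without Tg2 replicate 2), and held no call by edgeR or DESeq2 (6 lower and 0 higher at an unadjusted p-value under 0.05). DUSP10, a phosphatase of JNK and p38, was at 52.7, 60.9 and 62.8 CPM in Tg1 and 96.1, 87.9 and 65.9 CPM in Tg2, a log2 fold change of -0.50 ± 0.18 (edgeR adjusted p = 0.155), and FOSL1 was at -0.28 ± 0.11 (0.206).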

How the data were processed

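Per the study's methods, the authors quantified reads with Salmon 0.14.1 against the Ensembl release 98 pig cDNA set and deposited whole-number counts per gene, unscaled; how transcripts were summed to genes, and a genome build, are not given in the sources used here. A mean of at least 2 CPM across the 15 libraries was required, which 11553 of 16660 genes met. These were tested with edgeR 4.0.16 in R 4.3.3 (TMM, glmQLFit, glmQLFTest, 5 group means in 1 model, Benjamini-Hochberg). The limits for DEGs were those of the study, an adjusted p-value up to 0.05 and a log2 fold change of 0.26 at least in either direction. The SE is the log2 fold change over the square root of F. Levels are TMM-normalized CPM, and limma 3.58.1 is the package edgeR builds on. Alternatives used DESeq2 1.42.0 and sva 3.50.0, and the tests were tried on simulated data.

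Symbols came from the study's gene tables (1437) and a gene name table (11989), and 10185 of the tested genes had one. Genes named were the 12 with a symbol and the smallest p-value in each direction, up to 5 per list, and MYC, ADM, IER3, EDN1, PKHD1, LRP6, DMXL1 and WFDC2, from which the text gives a selection. The members and the gene lists were chosen with earlier results of these data known. Replicates of Tg1 and Tg2 differed by a chi-square per degree of freedom of 3.29 to 20.8, above counting noise, so all were kept as separate samples. The human transgene and pig PKD1 and PKD2 were not analysed here.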

Additional observations from a re-analysis of the deposited data

How the results depend on the processing

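The number of DEGs between Tg1 and Tg2, 16 in the reported fit, depended on most choices. It was 17 with DESeq2 size factors and 22 with no fold-change limit, and 156 with DESeq2 (43 higher and 113 lower, 1792 genes without an adjusted p-value), 4 with upper-quartile factors, 7 with no filter on low counts, 54 with a mean CPM of 10 or more, 172 with 1 surrogate variable, 0 with the 6 libraries alone (edgeR, 2209 genes at an unadjusted p-value under 0.05) and 0 with edgeR's glmTreat (149 genes). Leaving out 1 of the 6 libraries gave 0 to 117. The counts of 0 came with 1194, 1862 and 1459 such genes without Tg1 replicate 1, Tg1 replicate 2 and Tg2 replicate 1. Leaving out a replicate number in all 5 groups gave 0 each time, with 571, 1715 and 3140 such genes for numbers 1, 2 and 3. With the replicate number as a block there were 162 DEGs (63 higher and 99 lower), but same-numbered Tg1 and Tg2 wells had correlations of deviations from their group means of -0.361, 0.106 and -0.215, so the numbers were not taken as pairs in this comparison. Over all 5 groups, 1 of the 10 pairs of groups (NC and WT) had every such correlation over 0.1. For replicate 2 alone the correlation was positive in every pair, from 0.101 (Tg2 and Tg3) to 0.544 (NC and WT). For replicate 3 it was negative in every pair with Tg1. In the pairs without Tg1 it was positive, from 0.255 (WT and Tg3) to 0.549 (WT and Tg2). Replicate 2 was the well with the highest summed interferon-stimulated genes in NC, WT and Tg3. Whether wells of one number were handled together is not given in the sources used here. The share of DEGs lower in Tg1 was 87.5% in the reported fit, 72.4% with DESeq2, 61.1% with the block, 71.5% with the surrogate variable and 53.8% without Tg2 replicate 3. None of the 89 genes so checked, all named in the text, changed direction under any of the 19 alternatives that tested it. These genes are a selection, so this count does not hold for all members of the lists or every gene named. The alternatives with no fold-change limit and with glmTreat use the reported fit, so they could not change a direction. With the surrogate variable, 35 of 48 interferon-stimulated genes and 12 of 21 antigen presentation genes were higher in Tg1. Each of the 16 DEGs was called in 6 to 11 of the 19 alternatives, and DMXL1 and NUP205 in 11. All 16 were bound to be called with no fold-change limit, which keeps the reported fit. The cause of these shifts was not tested. With 3 wells a group, differences smaller than the spread between wells could not be detected.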

Other observations

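One gene without a symbol, ENSSSCG00000036341, chosen after its values were seen, had the largest fitted fold change of Tg1 against Tg2 and was not a DEG (edgeR adjusted p = 0.256). It was at 0, 1.81 and 7.37 CPM in the Tg1 wells and at 0 in all 3 Tg2 wells. Zeros also stood beside clear values in other groups, with 2.36, 9.15 and 0 CPM in Tg3 and 0, 2.11 and 8.76 CPM in WT, while NC wells were at 1.37, 9.12 and 1.81 CPM. The level thus varied between wells of a group from 0 to several CPM in Tg1, Tg3 and WT.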
